A study of Homo sapiens with 6 samples.

Results

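MSLN encodes mesothelin, and 7 genes were examined around it: MSLN itself, MUC16, whose product CA125 binds mesothelin, and the genes MSLNL, RPUSD1, CHTF18, HAGHL and CCDC78 that flank MSLN on chromosome 16p13.3. They were picked by symbol, and 6 of the 7 have a row in the deposited table of 17860 genes; MSLNL was not analysed here. All 6 had a value in every sample and passed the filter on low counts, as 6 of 14552 tested genes. The samples came from HCC1806-HM3, a derivative of the human triple-negative breast cancer line HCC1806 that was selected for growth in the liver by serial passage in mice. One group of 3 samples carried a control shRNA (shNC) and the other 3 an shRNA against MSLN (shMSLN), both as stable knockdown lines, and the comparison asks which transcripts changed when MSLN was depleted. All 6 samples share this 1 parental derivative, and neither the labels nor the methods say whether the 3 samples of a group were separate cultures, so p-values measure only the spread between these samples.

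Mesothelin is made as a precursor that furin-like proteases cleave, and its membrane part is held on the cell surface by a glycosylphosphatidylinositol (GPI) anchor. It is normally found on mesothelial cells and is abundant in several carcinomas. MUC16 is a very large membrane mucin whose shed ectodomain is the serum marker CA125, and its N-linked glycans bind mesothelin, a contact known for attaching tumor cells to mesothelium. The flanking genes have no known part in that contact. RPUSD1 belongs to the RNA pseudouridine synthase family, CHTF18 is a subunit of an alternative clamp loader used in sister chromatid cohesion, HAGHL resembles hydroxyacylglutathione hydrolase, and CCDC78 is a coiled-coil protein of the deuterosome, which builds centrioles in multiciliated cells.

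The knockdown sequences are shown first, since they are the intervention that every value below follows. The study lists a pair of human MSLN targets, and which of them the sequenced cells carried is not given in the sources used here. Each is printed within the spliced MSLN transcript MSLN-201 (2116 bases, forward strand, GENCODE release 29, GRCh38), with the target in capitals and the neighboring coding bases in lower case.
shRNA1: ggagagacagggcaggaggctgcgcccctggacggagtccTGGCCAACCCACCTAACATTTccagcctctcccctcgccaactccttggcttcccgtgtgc
shRNA2: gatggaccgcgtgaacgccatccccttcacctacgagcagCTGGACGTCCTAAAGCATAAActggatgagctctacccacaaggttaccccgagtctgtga
The shRNA1 target lies in coding exon 4 of 17 (chr16:763667-763687), at bases 250 to 270 of the transcript, and is held by 6 of the 8 annotated MSLN transcripts. The shRNA2 target lies in coding exon 11 (chr16:766208-766228), at bases 1140 to 1160, and is held by 7 of the 8. The other genes were searched for the same letters. In MUC16 the closest stretch differed from either target by 5 bases, a distance reached or beaten by 106 of 17282 genes (0.613%) for shRNA1 and 124 genes (0.718%) for shRNA2. The control shRNA sequence, which is shorter, also came within 5 bases of MUC16, and a transcript as long as that of MUC16 offers more stretches to match than most; length was not accounted for. RPUSD1 differed by at least 9 bases from both targets, CHTF18 by at least 9 and 7, HAGHL by at least 6 and 8, and CCDC78 by at least 7 and 8. The 7-base sites that pair with the seed of each guide, taken as target bases 14 to 20 (TAACATT and AGCATAA), each occurred once in the longest MUC16 transcript of 43816 bases, with 0 matches in its 3′ UTR of 88 bases, and 0 times in the longest RPUSD1 transcript. Among the longest coding transcripts of 17246 genes, 21.3% hold the first site and 14.6% the second. A letter match describes sequence only, and whether it affects any transcript was not tested.

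Depth and the making of the table bear on each value. Estimated counts summed to between 17507837 and 18512135 per sample. In shMSLN replicates 2 and 3 all 6 gene counts were exact whole numbers, against 0 or 1 of them in each other sample. Among genes with over 100 reads the share of whole counts was 47.7% in both, against 3.36% to 7.02% in the other 4 samples. The reason is not given in the sources used here, and results are also given from shMSLN replicate 1 alone where that changes a call. Replicates 2 and 3 were the most alike pair (chi-square per degree of freedom of 1.21 across genes, where sampling alone gives 1). The other pairs within a group were at 2.21 to 5.96. This value cannot tell separate cultures from repeat measurements of 1 culture. Replicates 2 and 3 were counted as separate samples because their labels list them so. If they are not independent, the p-values and the shMSLN SDs overstate the replication. The cells carried epithelial and squamous transcripts, with EPCAM at 348 to 364 TPM (a transcript level scaled for length and depth) and KRT5 at 1741 to 2346 TPM, though KRT14 was only at 4.58 to 5.92 TPM. Of 7 squamous and basal markers, 4 were called lower and 2 higher, a share of 85.7% against 34.6% of all tested genes. Among these markers, KRT5 was left at 77.0% and KRT6A at 48.8% of the shNC level, while DSG3 rose by 0.84 on the log2 scale. Their part in any result was not tested. Among mesothelial markers, WT1 did not exceed 0.96 TPM, CALB2 0.19 TPM and LRRN4 0.63 TPM, whereas BNC1 and UPK3B, which squamous and urothelial cells also express, were present. Of the 3 mesothelial markers that passed the filter (WT1, UPK3B and BNC1), UPK3B was called higher and 0 were called lower. That is 33.3% called, against 34.6% of all tested genes in either direction. UPK3B was at 191 to 208 TPM in shNC and 254 to 277 TPM in shMSLN samples, while WT1, CALB2 and LRRN4 were at or near 0 in both groups. Hepatocyte ALB did not exceed 0.06 TPM.

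MSLN fell to 15.9% and MUC16 to 59.1% of the mean control level, RPUSD1 fell slightly, and CHTF18, HAGHL and CCDC78 did not pass the test.
MSLN was measured at 230.9, 226.3 and 227.5 CPM (counts relative to the TMM-scaled library total) in the shNC samples and at 37.1, 36.2 and 35.4 CPM in the shMSLN samples. Every shMSLN sample was far below every shNC sample, and neither group spread by more than a few CPM. On the log2 scale this was a difference of -2.65 with a standard error of 0.042 (edgeR quasi-likelihood fit, adjusted p = 3.97e-15), and the 95% interval leaves 14.9% to 16.9% of the control level. Of the 14552 tested genes none had a smaller p or a larger fall, which checks the labels of both groups. Genes lacking a value in any sample were not part of this ranking. The remaining MSLN signal rested on 626 to 691 reads per sample, against 4082 to 4220 in shNC. In TPM, MSLN ranked 610 of 16573 genes in shNC cells and 4551 in shMSLN cells. It thus moved down from among the more abundant transcripts, to a place still above the middle of the ranking.

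MUC16 was measured at 137.9, 150.9 and 155.6 CPM in the shNC samples. In the shMSLN samples it stood at 90.0, 87.8 and 85.0 CPM. The groups did not overlap, and the lowest shNC sample was replicate 1. On the log2 scale MUC16 differed by -0.76 with a standard error of 0.049 (adjusted p = 3.12e-08, edgeR), with a 95% interval of 55.1% to 63.6% of the control level. The exact two-sided permutation test gave p = 0.1, the smallest that 3 samples against 3 allow, for MUC16 and for MSLN alike. Of the tested genes, 207 (1.42%) fell further than MUC16, so its fall was sizeable among all changes but not the next largest after MSLN.

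The fall of MUC16 was smaller than that of MSLN within every library, a comparison that needs no scaling. The ratio of MUC16 to MSLN estimated counts was 0.597, 0.667 and 0.684 in shNC samples and 2.42, 2.42 and 2.40 in shMSLN samples, a log2 difference of 1.90 (two-sided exact permutation, p = 0.1, again the smallest possible). A count ratio between genes also reflects their lengths, so it shows the change but not which level is higher. Scaled for length, MSLN was above MUC16 in both groups, and the ratio of MSLN to MUC16 in TPM was 6.57, 6.12 and 5.81 in shNC samples and 1.54, 1.55 and 1.69 in shMSLN samples.

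**Figure D1:**
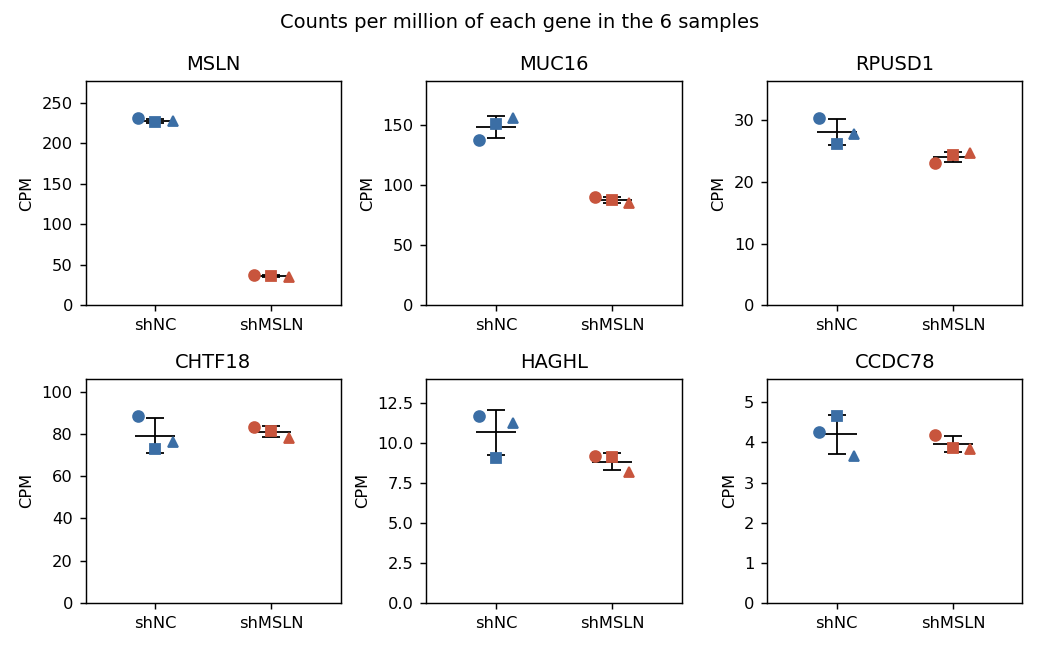
CPM (vertical axes, from 0) of the 6 genes in shNC (blue) and shMSLN (red) samples; circles, squares and triangles are replicates 1, 2 and 3, and bars are the mean ± SD (n = 3). MSLN, MUC16 and RPUSD1 have groups that do not overlap, while CHTF18, HAGHL and CCDC78 overlap. The share of all tested genes whose groups do not overlap is not given here.

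RPUSD1, which starts 27.6 kb from the MSLN start, was at 30.3, 26.1 and 27.8 CPM in shNC samples and 23.1, 24.3 and 24.6 CPM in shMSLN samples. The groups did not overlap, but the lowest shNC sample and the highest shMSLN sample were only 26.1 and 24.6 CPM. RPUSD1 differed by -0.23 on the log2 scale with a standard error of 0.068 (adjusted p = 0.0179, edgeR), and this call was lost in 9 of 20 alternatives. Without shNC replicate 1 the adjusted p was 0.0559, without shMSLN replicate 1 it was 0.0725, without shMSLN replicate 2 it was 0.0502, and with DESeq2 it was 0.0558. With shMSLN replicate 1 as the only knockdown sample, assumed to vary like the shNC samples, the adjusted p was 0.121.
CHTF18 shares the start region of RPUSD1 on the opposite strand. It was at 88.4, 72.9 and 76.0 CPM in shNC samples and at 83.3, 81.5 and 78.3 CPM in shMSLN samples. The shMSLN samples lay inside the shNC range, and the log2 fold change of 0.03 had a 95% interval of -0.10 to 0.17 (adjusted p = 0.707, edgeR). This value turned on single control samples: it was -0.02 without shNC replicate 2, and 0.12 with an adjusted p of 0.0411 without shNC replicate 1, which holds the highest reading.

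HAGHL was at 11.7, 9.04 and 11.2 CPM in shNC samples and at 9.19, 9.09 and 8.19 CPM in shMSLN samples. shNC replicate 2 fell among the shMSLN samples. The log2 fold change was -0.27 (95% interval -0.51 to -0.03, adjusted p = 0.073, edgeR), and without shNC replicate 2 it became -0.37 with an adjusted p of 0.0126.
CCDC78 was at 4.27, 4.66 and 3.67 CPM in shNC samples and 4.19, 3.87 and 3.84 CPM in shMSLN samples, which is 66 to 84 reads. The groups overlapped, and the 95% interval of its log2 fold change of -0.08 ran from -0.40 to 0.24 (adjusted p = 0.712, edgeR). A difference of any size within that interval is compatible with these counts.

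In all, 3 of the 6 tested genes were called lower in shMSLN cells (MSLN, MUC16 and RPUSD1) and 0 higher. Over all tested genes 34.6% were called, 18.0% lower and 16.6% higher, and MSLN is the gene the shRNA targets. The split of all calls depended on the scale, with 47.9% of called genes higher on scaled counts and 61.1% higher on log2(TPM + 0.1). The median size of the calls across all genes was 0.287 on the log2 scale, so the RPUSD1 difference was below the typical called size and the MUC16 difference above it.

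The spans of the tested flanking genes overlap those of neighbors on the opposite strand, so reads could be split between them where exons overlap. Exons were not compared, and the strand setting of the counting is not given in the sources used here. RPUSD1 (chr16:784974-788397, reverse strand) and CHTF18 (chr16:788046-800737, forward strand) overlap by 352 bases in GENCODE. HAGHL (chr16:726936-735525, forward) overlaps the reverse-strand CIAO3 by 5773 bases and CCDC78 (chr16:722582-726954, reverse) by 19 bases. MSLN (chr16:760762-768865, forward) overlaps no other coding gene, and MUC16 lies apart on chromosome 19 (chr19:8848844-8981342, reverse). Summed with its partner, RPUSD1 plus CHTF18 went from 107 ± 10.3 to 105 ± 1.87 CPM (SD, n = 3 each), and HAGHL plus CIAO3 from 38.4 ± 2.55 to 35.9 ± 1.21 CPM. Both sums differed by less than the SD of the shNC samples, but a fall of RPUSD1 or HAGHL alone was too small to exceed it. RPUSD1 went from 28.1 to 24.0 CPM, while CHTF18 had an shNC SD of 8.21 CPM. HAGHL went from 10.6 to 8.82 CPM, and CIAO3 had an shNC SD of 1.90 CPM. Whether reads were split between partners was not tested. HAGHL plus CCDC78 went from 14.8 ± 1.12 to 12.8 ± 0.693 CPM (SD, n = 3 each), a difference larger than its shNC SD, and its groups did not overlap. The ratio of RPUSD1 to CHTF18 counts within a library was 0.343, 0.358 and 0.366 in shNC samples and 0.278, 0.299 and 0.315 in shMSLN samples (log2 difference -0.26, two-sided exact permutation, p = 0.1, the smallest possible). All 3 knockdown samples had a lower ratio than any control sample. Set against CIAO3 instead, RPUSD1 gave ratios of 1.15, 0.965 and 0.930 in shNC samples and 0.845, 0.956 and 0.863 in shMSLN samples, which overlapped (exact permutation test, p = 0.2). The ratio of HAGHL to CIAO3 overlapped between groups (exact permutation test, p = 0.3).

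The starts of RPUSD1 and CHTF18 are shown because this pair shares one promoter region, and those of MUC16 because MUC16 fell. Promoters are RefSeq windows on GRCh38.p14 from 250 bases before to 50 after the start; 4 of the 7 genes matched the table (MUC16, RPUSD1, CHTF18 and CCDC78). The windows of RPUSD1 (chr16:788332-788631, reverse) and CHTF18 (chr16:788370-788669, forward) overlap by 262 bases, so 1 is printed. Capitals mark GGAA or its complement TTCC, the core that ETS factors such as ELF1 bind.
RPUSD1: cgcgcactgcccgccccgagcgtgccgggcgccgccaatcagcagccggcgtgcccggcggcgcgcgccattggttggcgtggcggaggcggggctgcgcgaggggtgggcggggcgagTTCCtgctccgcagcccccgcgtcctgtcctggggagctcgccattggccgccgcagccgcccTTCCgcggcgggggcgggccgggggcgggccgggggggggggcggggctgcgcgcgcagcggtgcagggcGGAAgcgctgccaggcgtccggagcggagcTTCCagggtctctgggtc
MUC16 first start: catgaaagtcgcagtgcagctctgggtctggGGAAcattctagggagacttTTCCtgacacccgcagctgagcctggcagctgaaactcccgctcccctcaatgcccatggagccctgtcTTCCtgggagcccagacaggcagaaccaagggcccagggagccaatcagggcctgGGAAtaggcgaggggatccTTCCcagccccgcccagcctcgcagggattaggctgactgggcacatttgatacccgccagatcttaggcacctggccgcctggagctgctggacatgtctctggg
MUC16 second start: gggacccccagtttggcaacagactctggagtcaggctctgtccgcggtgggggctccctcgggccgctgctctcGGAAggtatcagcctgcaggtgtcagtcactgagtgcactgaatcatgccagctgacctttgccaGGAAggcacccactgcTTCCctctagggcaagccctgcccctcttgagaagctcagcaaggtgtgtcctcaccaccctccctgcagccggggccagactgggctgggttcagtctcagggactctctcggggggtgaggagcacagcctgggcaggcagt
The RPUSD1 window is rich in GC boxes (GGGCGG, both strands), with 7, and holds 4 GGAA cores. The MUC16 windows (chr19:9065702-9066001 and chr19:9010360-9010659, reverse), which lie upstream of the GENCODE gene body, hold 5 and 3 GGAA cores, 1 and 0 GC boxes, and 0 copies of CATTCC, the sequence TEAD factors bind. The CCDC78 window holds 6 GGAA cores, 1 GC box and 1 CATTCC. Of 35116 RefSeq promoters, 95.5% hold GGAA, 45.0% GGGCGG and 14.0% CATTCC on either strand, so the GGAA matches are what nearly any promoter shows.

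Levels of different genes were ordered in TPM, since read counts depend on length. In shNC cells the order was MSLN at 229 TPM on average, CHTF18 at 58.8, MUC16 at 37.3, RPUSD1 at 32.5, HAGHL at 17.8 and CCDC78 at 5.98. MUC16 and RPUSD1 overlapped there, at 34.8 to 39.1 and 30.5 to 34.9 TPM, and the other neighbors in the order did not. In shMSLN cells CHTF18 led at 61.1 TPM, followed by MSLN at 37.5, RPUSD1 at 28.8, MUC16 at 23.5, HAGHL at 15.1 and CCDC78 at 6.27, with each apart from the next. MSLN thus went from well above CHTF18 to below it, and MUC16 from level with RPUSD1 to below it.

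**Figure D2:**
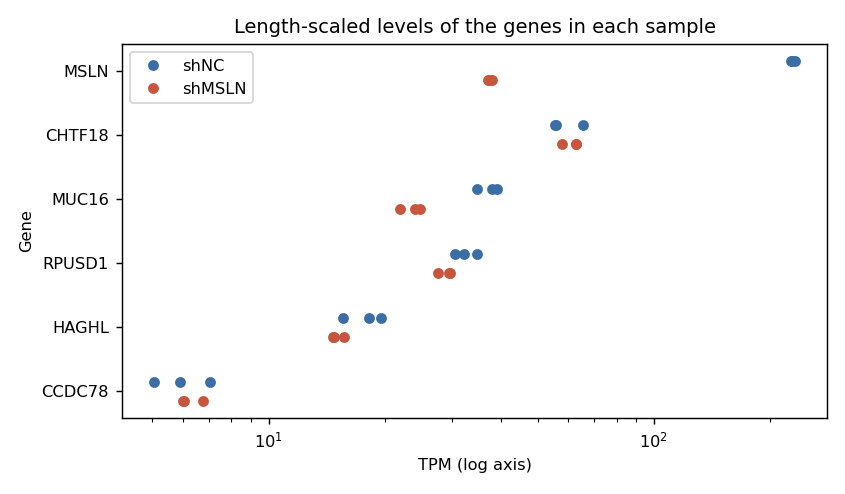
TPM of each gene (horizontal log axis) in the 3 shNC (blue) and 3 shMSLN (red) samples, 1 point per sample. MSLN averages 229 TPM in shNC and 37.5 TPM in shMSLN samples, and CHTF18, at 58.8 and 61.1 TPM, lies between.

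The length behind these levels differs from gene to gene. Dividing each count by its FPKM (a count scaled for length and library total) gave the transcript length that the deposited values imply. Over 210 genes with a single annotated transcript and at least 500 reads, this length was 0.98 of the annotated one at the median, with a 5th to 95th percentile range of 0.645 to 1.30, so an implied length is approximate for a single gene. For MSLN it was 2140 bases in shNC and 2130 in shMSLN samples, beside the 2116 bases of MSLN-201. For MUC16 it was 8402, 8746 and 8485 bases in shNC samples and 7971, 8080 and 8562 bases in shMSLN samples. The groups overlapped, and all 6 values lay between the shortest annotated coding transcript, at 4079 bases, and the longest, at 43816. The MUC16 level in TPM, and its place in the order, therefore depend on the transcripts the authors' counting assigned its reads to. On that scale 63.1% of the control level was left, against 59.1% in CPM. For CCDC78 the implied length was 1538, 1455 and 1558 bases in shNC samples and 1357, 1424 and 1402 bases in shMSLN samples, shorter in each of the latter, and its fold change turned from negative in CPM to 0.08 on log2(TPM + 0.1).

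Other genes of 16p13.3 were read to place MSLN in its surroundings. Of 33 tested genes listed there besides those above, 8 were called lower and 3 higher, 11 in all, which as a share is near that of all tested genes, and the median log2 fold change was -0.03 against 0.00 over all genes. The calls with the smallest adjusted p were SOX8, a developmental transcription factor, at 4.26 ± 0.276 and 1.70 ± 0.171 CPM (log2 fold change -1.32), FBXL16, an F-box protein, falling to 3.96 ± 0.414 CPM, 56.5% of its shNC level (-0.82), and GNPTG, a subunit of the enzyme that tags lysosomal proteins, at 42.7 ± 2.27 and 53.4 ± 2.98 CPM (0.32; SD, n = 3 in each group). SSTR5, a somatostatin receptor (-0.76), DECR2, a peroxisomal reductase (0.37), and CACNA1H, a calcium channel subunit (-0.68), followed. The count fell to 7 without shMSLN replicate 2 or replicate 3, to 6 with shMSLN replicate 1 alone, and to 6, with 3 lower and 3 higher, on log2(TPM + 0.1); with upper-quartile scaling it was 6 lower and 3 higher.
Of 20 tested coding genes that overlap the 250 kb on either side of MSLN, with MSLN and its named neighbors left out, 5 were lower (SOX8, FBXL16, CAPN15, METRN and METTL26), 1 was higher (JMJD8) and 14 were not called. The share called was 30.0%, against 34.6% of all tested genes (18.0% lower and 16.6% higher). CIAO3, the coding gene whose start lies closest to that of MSLN among the tested ones, was at 26.3, 27.1 and 29.9 CPM in shNC samples and 27.4, 25.5 and 28.5 CPM in shMSLN samples, and its groups overlapped (log2 fold change -0.03, adjusted p = 0.749, edgeR). The ratio of MSLN to CIAO3 counts within a library was 8.79, 8.37 and 7.60 in shNC samples and 1.36, 1.42 and 1.24 in shMSLN samples. CIAO3 thus differed by less than the spread of its samples, while MSLN fell relative to it in every library.

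**Figure D3:**
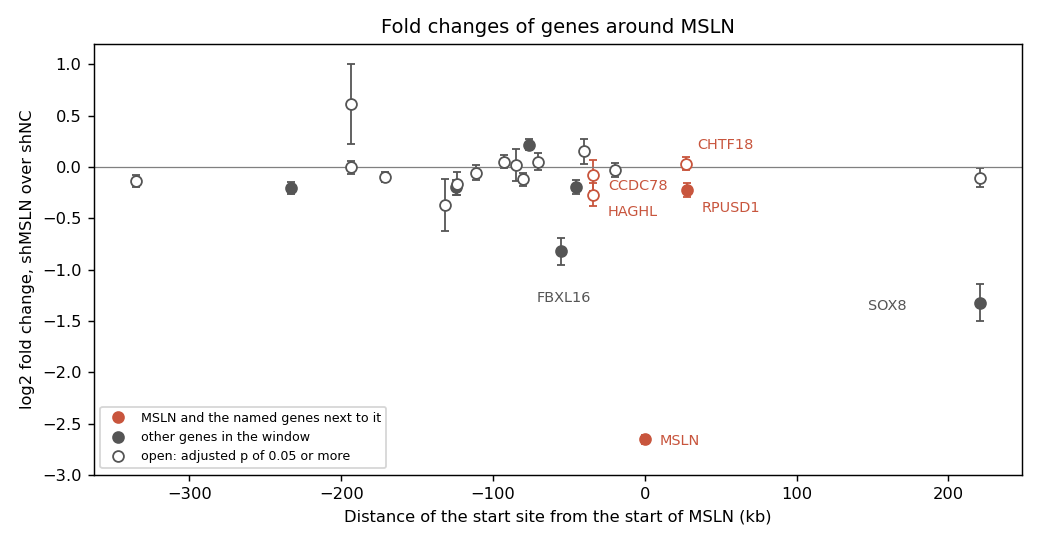
log2 fold change, shMSLN over shNC (vertical axis, bars are standard errors), of tested coding genes overlapping 250 kb on either side of MSLN, against the distance of each start site from that of MSLN in kb; open points have an adjusted p of 0.05 or more. MSLN at -2.65 stands far below its neighbors, and SOX8 at -1.32 and FBXL16 at -0.82 are the next lowest.

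Genes that act on mesothelin or bind it were read next. Of 8 proteases that mature or shed it or that are related to those, 3 were called lower and 0 higher. The share of 37.5% is near the 34.6% of all tested genes called in either direction. In the lower direction alone, 18.0% of all tested genes were called. FURIN, the proprotein convertase that cleaves the mesothelin precursor, was at 61.9 ± 0.721 and 52.2 ± 1.71 CPM (SD, n = 3 each; log2 fold change -0.24). The related convertase PCSK5 (-0.34) and the aspartyl protease BACE2 (-0.25) fell as well, while the sheddase ADAM17 was at 59.1 ± 2.76 and 56.2 ± 0.713 CPM (adjusted p = 0.271, edgeR). Of 20 genes of GPI anchor synthesis and attachment, 7 were called higher and 0 lower, with a median log2 fold change of 0.12. The share called, 35.0%, was near the 34.6% of all tested genes called in either direction. In the higher direction alone, 16.6% of all tested genes were called. The GPI genes called included PIGT, at 104 ± 4.42 and 125 ± 3.03 CPM (0.26), and GPAA1, at 115 ± 3.78 and 134 ± 5.37 CPM (0.22). Both are subunits of the transamidase that joins proteins to the anchor. PGAP3 (0.42), which remodels the lipid of the anchor, was also called. PIGQ, which is also a 16p13.3 gene, was at 32.3 CPM on average in shNC and 32.2 in shMSLN samples.
The study reports that EGFR protein binds mesothelin, from co-immunoprecipitation among other assays. EGFR transcripts rose from 535 ± 12.1 to 604 ± 14.6 CPM (log2 fold change 0.18, adjusted p = 0.0012, edgeR). Protein level and phosphorylation of EGFR are not measured by these data. Of the galectins that bind MUC16, LGALS1 rose from 70.1 ± 5.12 to 88.6 ± 2.03 CPM (0.34), and LGALS3 was at 98.8 ± 3.43 and 105 ± 3.12 CPM (adjusted p = 0.145, edgeR). Of the mesothelin relatives, STRC was near 2 CPM in both groups (adjusted p = 0.612, edgeR), and OTOA, at no more than 0.19 TPM, did not pass the filter.

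The 13 transcription factors and coactivators read next are named by the study or known at the MSLN promoter or at that of MUC16. Of these, 5 were called lower, 2 higher and 6 neither, with a median log2 fold change of -0.09. The share called was 53.8%, against 34.6% of all tested genes in either direction. CEBPB, a factor of inflammatory gene programs, was at 140.4, 130.9 and 135.5 CPM in shNC samples and 94.3, 88.4 and 86.1 CPM in shMSLN samples (-0.60, adjusted p = 1.63e-07, edgeR). IRF1, an interferon-responsive factor, was at 66.2, 69.5 and 67.6 CPM and then 48.9, 45.6 and 46.2 CPM (-0.53, adjusted p = 9.91e-07, edgeR). Neither gene's groups overlapped, and 66.1% and 69.2% of the control level was left.
ELF1, an ETS factor, rose slightly, from 115.0, 131.1 and 122.9 CPM to 137.6, 140.2 and 138.9 CPM (0.18, adjusted p = 0.00897, edgeR). TEAD1 also rose (0.28), whereas TEAD2 (-0.47), the TEAD coactivator YAP1 (-0.23) and KLF6 (-0.19) fell, so the TEAD family and its coactivator did not move in 1 direction. RELA, the p65 subunit of NF-kB, was at 142 ± 2.09 and 133 ± 3.66 CPM and missed the threshold (adjusted p = 0.0705, edgeR).

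By the distance between log2 CPM profiles over the 6 samples, each centered on its own mean, the genes most like MSLN among 13761 were CP (0.41), SAMSN1 (0.45), S100A9 (0.46), CCL20 (0.47) and GABRP (0.48). Their log2 fold changes were -1.80 to -2.23, smaller falls than that of MSLN. SAMSN1, CCL20 and GABRP averaged only 0.590, 0.743 and 0.982 CPM in shMSLN samples, so their falls rest on few reads. For MUC16 the nearest were SLFN5 (0.04), PRICKLE4 (0.04), ANKRD33B (0.04), SAT1 (0.05) and IL1RN (0.05), whose log2 fold changes of -0.71 to -0.77 nearly equal its own. The distance holds both the difference in the size of the fall and the scatter of samples within a group, and is given as a description.

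**Figure D4:**
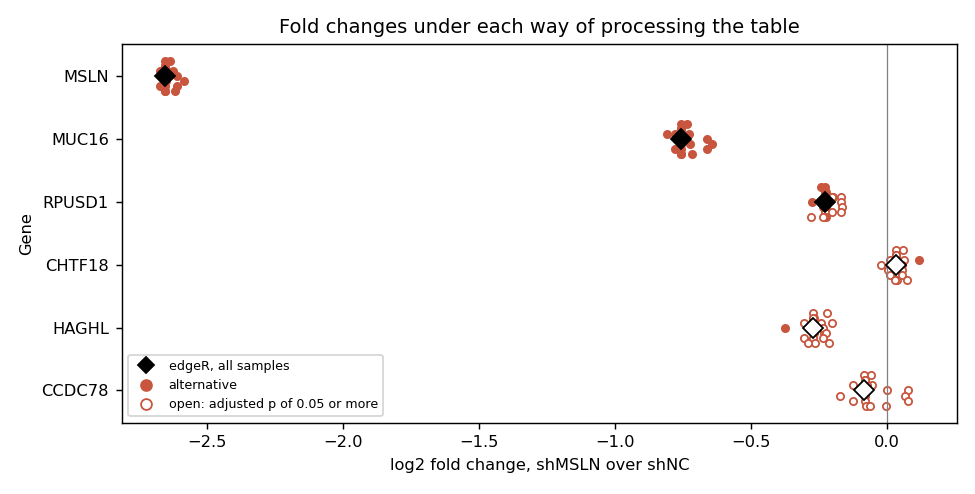
log2 fold change, shMSLN over shNC (horizontal axis), of each gene in the edgeR fit on all samples (black diamonds) and in 20 alternatives (red circles); open symbols have an adjusted p of 0.05 or more. MSLN and MUC16 are filled in every one, RPUSD1 is open in 9, and CCDC78 lies on both sides of 0.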

How the data were processed

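mRNA of 3 shNC and 3 shMSLN samples of HCC1806-HM3 cells was enriched by oligo(dT) and sequenced by BGI. The authors deposited 1 table with estimated counts, FPKM and TPM per gene and sample; the counter is not given in the sources used here, and the submitters' notes name the build GRCh38.p13. The deposited estimated counts are not scaled; the deposited FPKM and TPM values are scaled for length and depth. Genes with missing marks in any sample (1287) were left out, and none of the genes reported as members was among them. The marks were in shMSLN samples only: 1103, 695 and 695 genes in replicates 1, 2 and 3, against 0 in each shNC sample. For 511 genes all shMSLN samples lacked a value, so a gene seen only in shNC cells could be among those left out. Counts were rounded and tested in edgeR 4.0.16 (R 4.3.3; TMM, filterByExpr, quasi-likelihood test, no covariate) with Benjamini-Hochberg adjustment over 14552 genes at 0.05. CPM uses TMM-scaled totals. TPM served to order levels between genes, and FPKM for implied lengths and a second ordering. Exact permutation tests are two-sided.

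Alternatives were RLE and upper-quartile scaling, other filters, DESeq2 1.42.0, limma-voom and limma 3.58.1 on log2(TPM + 0.1) or log2(TPM + 1), robust estimation, a replicate block, missing marks as 0, and leaving out each sample. shMSLN replicate 1 alone was added after seeing the data. The edgeR script was tested on simulated data. The genes and lists were chosen with earlier results of these data known. Genes named are the 7 members, up to 6 called genes per list by smallest adjusted p, regulators discussed as such, and the 5 nearest in pattern to MSLN and MUC16. CIAO3, ADAM17, PIGQ, STRC, OTOA, LGALS3, RELA and the cell type markers EPCAM, KRT5, KRT6A, KRT14, DSG3, WT1, CALB2, LRRN4, BNC1, UPK3B and ALB were named after their values were seen. Positions are from GENCODE release 29, promoters from RefSeq.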

Additional observations from a re-analysis of the deposited data

How the results depend on the processing

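MSLN and MUC16 kept their direction and their call in 20 of 20 alternatives: leaving out 1 sample gave log2 fold changes of -2.67 to -2.63 and -0.81 to -0.72, and other settings gave -2.67 to -2.58 and -0.78 to -0.64. RPUSD1 kept its direction in all 20, from -0.28 to -0.16, and lost its call in 9, with adjusted p-values across alternatives from 0.00574 to 0.121. CHTF18 ranged from -0.0203 to 0.1211 with 1 sample left out. HAGHL was called in 1 alternative. CCDC78 turned to 0.0773 on log2(TPM + 0.1), with or without the filter, and to 0.0662 on log2(TPM + 1); its implied length was shorter in the shMSLN samples. Calls over all genes were 3695 to 5399 with 1 sample left out, 1797 with shMSLN replicate 1 alone, where fewer samples enter, and 3863 with DESeq2, against 5032. Of the 16p13.3 genes, 7 to 13 were called with 1 sample left out, 6, 7 and 7 on the TPM scales (log2(TPM + 0.1), log2(TPM + 1), no filter) and 6 with shMSLN replicate 1 alone, against 11; the cause was not tested for the TPM scales. Ranking by Pearson correlation in place of distance named 0 of the same 5 genes for MSLN. For MUC16 too it named other genes. The median of all genes moved by less than 0.1 in each setting.

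The replicate block called 5789 genes and changed no call among the 6 genes. Deviations of same-numbered samples correlated at 0.165, 0.076 and 0.072, so the numbers were not taken to pair the samples, although each sample correlated best with its own number. With 66 to 84 reads per sample, the CCDC78 fold change is limited by counting error.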
